A study of Homo sapiens with 33 samples.

Results

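FAF1, SCFD2 and FARS2 are 3 long protein-coding genes that hold 14 of the 900 EZH2 RIP-seq enriched RNA fragments listed for K562 cells. The listed fragments are fewer than the high-confidence fragments that the paper reports, and the reason was not examined. The fragments were chosen as those that lie wholly inside the spans of these genes on GRCh38, 6 in FAF1, 5 in SCFD2 and 3 in FARS2. The fragments were selected by the study for higher read coverage in EZH2 RIP-seq than in IgG RIP-seq, and the genes were chosen, with results of these data known, because they are long and hold several fragments. The number of fragments per gene and their EZH2 enrichment are therefore a description and not a result. No EZH2 or IgG coverage was analysed here, and the counts below are from RNA-seq without immunoprecipitation.

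K562 is an established human leukemia cell line, here unmodified (wild type), and it was the only cell line used. RNA was taken from the cytoplasm and from nuclei, and nuclear RNA was passed over oligo(dT) beads, of which the retained RNA is called polyA+ and the supernatant polyA−. Each of these 4 fractions was depleted of ribosomal RNA and sequenced as 1 library. The RIP-seq input RNA of the same line was sequenced as 1 further library, which gives the expression of each gene. With 1 library per fraction there is no replicate error, so the intervals below cover counting error only, and the tests compare libraries and not conditions. The 900 fragments together carried 7929 cytoplasmic, 105661 nuclear, 57985 polyA+ and 106051 polyA− reads. The totals of the libraries were not given in the sources used here, so the counts are compared as deposited, and differences in depth between libraries are part of every ratio of reads. All 8 genes fixed as markers of K562 cells (globins of embryonic and fetal erythroid cells, glycophorin A and erythroid transcription factors) were above 1 FPKM in the input RNA, from 11.99 to 218 FPKM.

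EZH2 is the catalytic subunit of Polycomb repressive complex 2 (PRC2), which methylates lysine 27 of histone H3 and which binds many RNAs, with a preference for G-rich sequence in vitro. Introns of long genes are transcribed for many minutes before they are spliced out, and most excised introns are degraded in the nucleus, so intronic RNA marks nascent or recently made transcripts. Mature mRNA, made of exons with a poly(A) tail, is mainly exported to the cytoplasm. FAF1 (FAS-associated factor 1) is a UBX-domain cofactor of the p97 ATPase VCP in ubiquitin-dependent protein degradation. SCFD2 (Sec1 family domain containing 2) belongs to the Sec1/Munc18-type proteins that act in vesicle traffic, and FARS2 is the mitochondrial phenylalanyl-tRNA synthetase.

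A window of FARS2 exon 2, the FARS2 fragment with the most nuclear reads, is shown first, since G-rich RNA is the kind that PRC2 prefers. The line gives its 150-base window with the most bases in runs of 3 or more G (chr6:5368845-5368994, plus strand), read 5′ to 3′ on the transcribed strand of GRCh38, with these runs in capitals.
FARS2 exon 2: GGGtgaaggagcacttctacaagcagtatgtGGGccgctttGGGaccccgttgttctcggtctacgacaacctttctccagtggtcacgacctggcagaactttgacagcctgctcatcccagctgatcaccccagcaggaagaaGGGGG
The window held 4 such runs with 14 bases. As many G-run bases were found in 5.01% of all 150-base windows of the 725 fragments in genes on 1 strand. Of these fragments, 62.6% had such a window, so many listed fragments hold one. FARS2 exon 2 is 617 bp long, against a median of 2128.5 bp over all listed fragments. Longer fragments hold more windows, and lengths were not matched.

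A pair of whole exons of SCFD2 and FARS2 is shown next, because these fragments end at the splice sites and not at arbitrary positions. Exon 4 of SCFD2 is given with 12 intronic bases on each side (chr4:53273814-53274013, minus strand), and exon 3 of FARS2 likewise (chr6:5404530-5404713, plus strand), with the exon in capitals and the intron in lower case.
SCFD2 exon 4: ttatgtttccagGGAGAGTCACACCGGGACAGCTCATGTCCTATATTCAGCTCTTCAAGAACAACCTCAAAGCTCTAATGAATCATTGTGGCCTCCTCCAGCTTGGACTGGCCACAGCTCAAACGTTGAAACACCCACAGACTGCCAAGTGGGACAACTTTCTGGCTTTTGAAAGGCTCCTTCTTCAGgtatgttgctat
FARS2 exon 3: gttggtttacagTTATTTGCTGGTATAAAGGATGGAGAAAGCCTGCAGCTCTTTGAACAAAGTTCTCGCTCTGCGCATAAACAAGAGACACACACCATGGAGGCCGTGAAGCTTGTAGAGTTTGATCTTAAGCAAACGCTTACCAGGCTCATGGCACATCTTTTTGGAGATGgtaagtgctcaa
Both exons are preceded by the intronic bases AG and followed by GT, the canonical splice acceptor and donor. The listed fragment coincided with the exon in both genes, 176 bp in SCFD2 and 160 bp in FARS2, all of it coding sequence. The study called exonic peaks on alignments to annotated transcripts. Ends at annotated exon boundaries, and the AG and GT beside them, are therefore not independent of the annotation.

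The spans of the 3 genes were similar in length, 523.236 kb for FAF1 (ENSG00000185104.19, chr1:50437028-50960263, minus strand), 493.094 kb for SCFD2 (ENSG00000184178.15, chr4:52872982-53366075, minus strand) and 510.537 kb for FARS2 (ENSG00000145982.11, chr6:5261044-5771580, plus strand). Their canonical transcripts have 19, 9 and 7 exons. Annotated exons of any isoform took 1.44% of the span of FAF1, 0.642% of SCFD2 and 0.460% of FARS2. The listed fragments took 3.67%, 1.57% and 0.570% of the spans. All 6 fragments of FAF1 were intronic. SCFD2 had 3 exonic and 2 intronic fragments, and FARS2 had 2 exonic and 1 intronic. None of the 14 fragments overlapped another annotated gene, and the call of exonic or intronic was the same for all 14 when any base in an exon counted as exonic.

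Fragments are named below by the exon or intron of the canonical transcript that holds them, with a and b for fragments of the same intron in the order of transcription. In FAF1 they lay in introns 1 (a and b), 4, 8 (a and b) and 15, between 18.249 and 445.389 kb from the start of the transcript. The gaps between neighbouring FAF1 fragments were 25.732, 148.165, 104.716, 32.305 and 100.362 kb. In SCFD2 the order along the gene was exon 1, exon 4, intron 4, exon 5 and intron 5, with gaps of 91.235, 9.938, 115.401 and 76.727 kb. In FARS2 it was exon 2, exon 3 and intron 6, with gaps of 35.359 and 235.235 kb. These gaps are genomic. In spliced RNA the fragments of exons 4 and 5 of SCFD2 adjoin, as do those of exons 2 and 3 of FARS2. Whether each such pair is 1 piece of spliced RNA was not tested, and how reads across the junctions were counted was not given. They are counted as separate fragments below. Intronic fragments lay between 3.101 and 144.112 kb from the nearest exons on either side, and the introns themselves were long, from 43.224 kb (intron 4 of FAF1) to 224.462 kb (intron 5 of SCFD2).

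**Figure D1:**
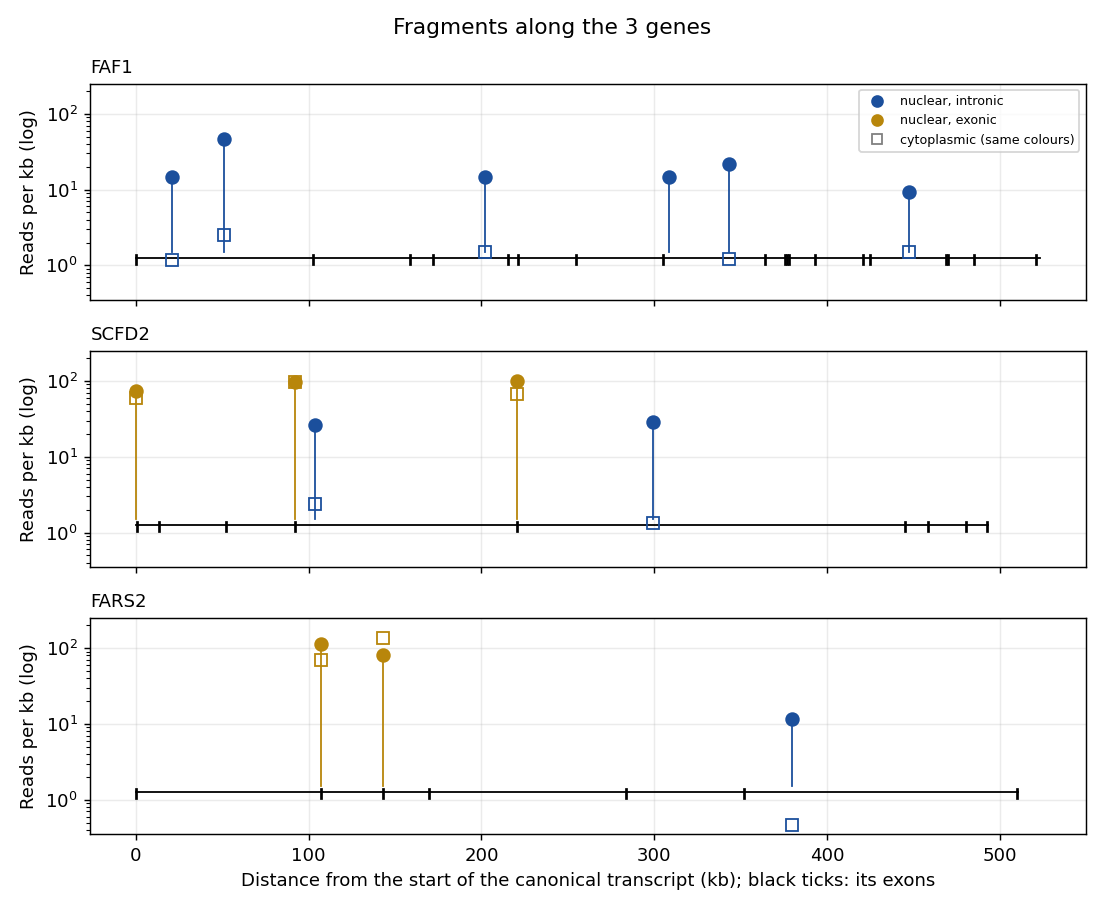
Fragments of FAF1, SCFD2 and FARS2 at their distance from the start of the canonical transcript in kb (x axis), with reads per kb of fragment on a log scale (y axis), filled for nuclear and open for cytoplasmic RNA, and black ticks for exons. Intronic fragments (blue) have open symbols far below the filled ones, exonic fragments (gold) have both close together, and FAF1 intron 8 a has no open symbol because it had 0 cytoplasmic reads.

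The next listed fragments outside the spans lay at unequal distances from the edges of the genes. Outside FAF1 the nearest listed fragment was an intronic one of LRP8, 2.35 Mb from the edge of the span. Outside SCFD2 it was an intronic fragment of ADAMTS3, 19.1 Mb from the edge. The smallest distance was at FARS2, with an intronic fragment of LYRM4 that lay 50.7 kb before the start of the span and had 5 cytoplasmic, 48 nuclear, 14 polyA+ and 57 polyA− reads.

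In the input RNA, FAF1 was expressed at 51.98 FPKM (bounds of the deposited estimate 47.5 to 56.4). SCFD2 was at 9.19 FPKM (7.48 to 10.9) and FARS2 at 8.33 FPKM (6.91 to 9.76). On this scale, which is per length of exonic sequence, the interval of FAF1 lay above those of both other genes, and the intervals of SCFD2 and FARS2 overlapped. FAF1, with the highest level of the 3, was the gene with no exonic fragment in the list. In bulk RNA, a low level in all cells and a higher level in fewer cells cannot be told apart. Across all entries of the table, 21.8% were at 1 FPKM or more.

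The FAF1 fragments were all low in cytoplasmic RNA. FAF1 intron 1 b, 3931 bp long (chr1:50907200-50911130), had the most reads of the 14 fragments, 10 in cytoplasmic, 181 in nuclear, 43 in polyA+ and 246 in polyA− RNA. Its nuclear count was 18.1 times its cytoplasmic count (exact 95% interval 9.62 to 38.4), and its polyA− count was 5.72 times its polyA+ count (4.12 to 8.11). FAF1 intron 1 a, 5156 bp long and the closest to the promoter (chr1:50936863-50942018), had 6, 76, 23 and 114 reads in the same order. The low values were again the cytoplasmic and polyA+ counts, with ratios of 12.7 (5.56 to 35.6) for nuclear over cytoplasmic and 4.96 (3.15 to 8.13) for polyA− over polyA+. FAF1 intron 4 (chr1:50757057-50759034, 1978 bp) had 3 cytoplasmic, 29 nuclear, 10 polyA+ and 35 polyA− reads. With 3 cytoplasmic reads, its nuclear ratio of 9.67 had an interval from 3.00 to 49.6.

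Intron 8 of FAF1, 59.225 kb long, held a pair of fragments 32.305 kb apart that differed in depth. FAF1 intron 8 a (chr1:50650838-50652340, 1503 bp) had 0 cytoplasmic, 22 nuclear, 4 polyA+ and 9 polyA− reads. Against a floor of 3 reads its nuclear count was at least 7.33 times the cytoplasmic one, and its polyA− ratio of 2.25 (0.628 to 10.0) was not told from 1 at this depth (two-sided exact binomial test, Benjamini-Hochberg adjusted p = 0.323 over 900 fragments). FAF1 intron 8 b (chr1:50615241-50618532, 3292 bp) had 4 cytoplasmic, 72 nuclear, 56 polyA+ and 106 polyA− reads. It was the FAF1 fragment with the highest polyA+ count, and its polyA− ratio was 1.89 (1.36 to 2.67). FAF1 intron 15 (chr1:50511545-50514878, 3334 bp), the farthest from the promoter, had 5 cytoplasmic, 31 nuclear, 6 polyA+ and 64 polyA− reads, with ratios of 6.2 (2.39 to 20.4) and 10.7 (4.64 to 30.1). In all 6 fragments of FAF1 the cytoplasmic count was the lowest of the 4, and in all but intron 8 a the polyA− count was the highest.

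Nuclear read density along FAF1 ran from 9.30 reads per kb in intron 15 to 46.0 in intron 1 b, a 4.95-fold range. The fragment closest to the promoter, with 14.7 reads per kb, was not the densest. Over the 6 fragments the rank correlation of density with distance from the start was −0.54, given as a description, since the fragments share 1 gene and 1 library.

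**Figure D2:**
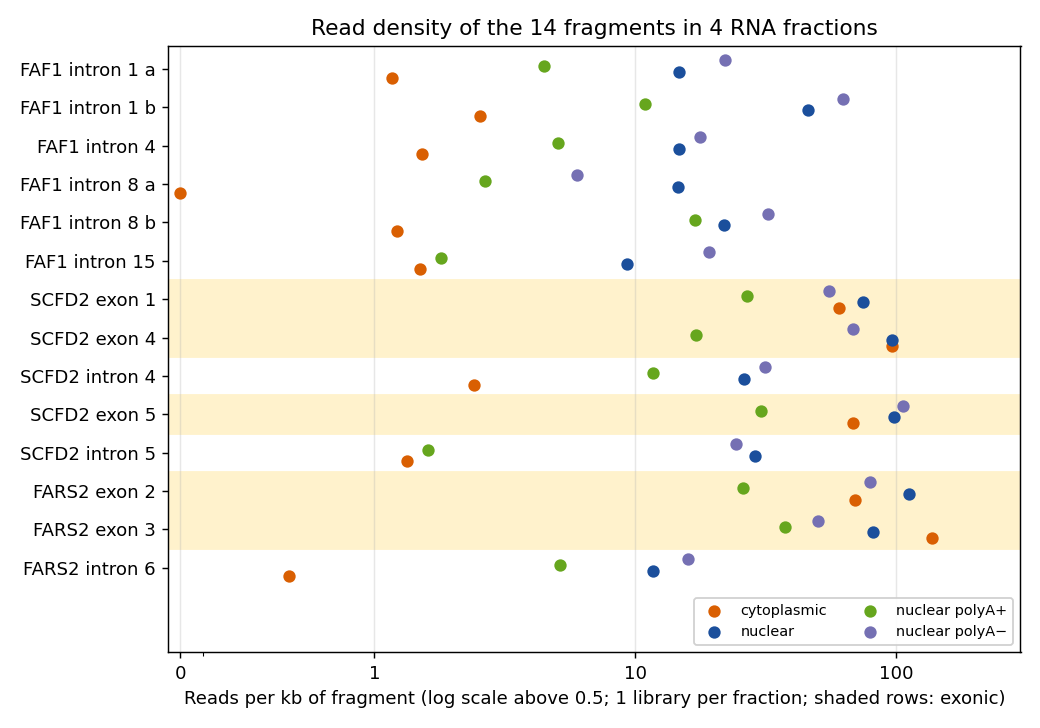
Reads per kb of fragment (x axis, log scale above 0.5) of the 14 fragments in cytoplasmic, nuclear, nuclear polyA+ and nuclear polyA− RNA, 1 library each. In the 9 intronic fragments the cytoplasmic points lie at 2.54 reads per kb or less, whereas in the 5 exonic fragments (shaded) they lie close to the nuclear points.

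The exonic and intronic fragments of SCFD2 had different profiles. SCFD2 exon 1 (chr4:53365237-53366016, 780 bp, of which 705 are coding) had 47 cytoplasmic, 58 nuclear, 21 polyA+ and 43 polyA− reads. SCFD2 exon 4 (chr4:53273826-53274001), whose sequence is printed above, had 17 cytoplasmic, 17 nuclear, 3 polyA+ and 12 polyA− reads. SCFD2 exon 5 (chr4:53145451-53145582) is a 132-bp piece at the acceptor side of a 250-bp exon and had 9, 13, 4 and 14 reads in the same order. In none of these 3 exons was the nuclear count told from the cytoplasmic count, with ratios of 1.23 (0.825 to 1.85), 1 (0.480 to 2.08) and 1.44 (0.571 to 3.83).

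The 2 intronic fragments of SCFD2 had few cytoplasmic reads. SCFD2 intron 4 (chr4:53260984-53263887, 2904 bp), which begins 9.938 kb after exon 4, had 7 cytoplasmic, 76 nuclear, 34 polyA+ and 91 polyA− reads. Its nuclear count exceeded the cytoplasmic one 10.9-fold (5.02 to 27.9). SCFD2 intron 5 (chr4:53064983-53068723, 3741 bp) had 5 cytoplasmic, 108 nuclear, 6 polyA+ and 91 polyA− reads. Both its ratios were high, 21.6 (8.98 to 67.9) for nuclear over cytoplasmic and 15.2 (6.71 to 42.4) for polyA− over polyA+, the latter being the highest of the 14 fragments.

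FARS2 exon 2 (chr6:5368566-5369182), which covers 617 of the 633 bases of its exon and 612 coding bases, had 43 cytoplasmic, 69 nuclear, 16 polyA+ and 49 polyA− reads. It was the only exonic member with a nuclear count called higher than the cytoplasmic one, at a ratio of 1.60 (1.08 to 2.41; two-sided exact binomial test, Benjamini-Hochberg adjusted p = 0.0205 over 900 fragments). FARS2 exon 3 (chr6:5404542-5404701), the other printed exon, had 22 cytoplasmic, 13 nuclear, 6 polyA+ and 8 polyA− reads. It was the only member with more cytoplasmic than nuclear reads, although its ratio of 0.591 (0.273 to 1.23) was not told from 1. FARS2 intron 6 (chr6:5639937-5642069, 2133 bp) had 1 cytoplasmic, 25 nuclear, 11 polyA+ and 34 polyA− reads. Its nuclear ratio of 25 rests on that 1 cytoplasmic read and has an interval from 4.09 to 1026.

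Counts as deposited were higher in nuclear than in cytoplasmic RNA for 10 of the 14 fragments, all 9 intronic ones and exon 2 of FARS2, at an adjusted p under 0.05 in the exact binomial test. Over all 900 fragments the same call was made for 88%, so the members' share did not exceed the background. PolyA− counts were higher than polyA+ counts for 12 of the 14, the exceptions being intron 8 a of FAF1 and exon 3 of FARS2, against 68% of all fragments. No member was called lower in either comparison. These calls depend on the unknown depth of the libraries. The study, with counts normalized to total mapped reads, reported higher nuclear than cytoplasmic counts for most of its fragments. The 2 scalings below set the summed or the median ratio over the listed fragments to 1. They compare the members with the other fragments and do not correct for depth. With the libraries scaled to equal sums over the 900 fragments, the nuclear count was called higher for 0 and lower for 5 members, against 126 and 71 of all fragments, and the polyA− count was called higher for 4 and lower for 0, against 407 and 129. With scaling to a median ratio of 1, the nuclear calls were 0 higher and 5 lower, against 23 and 102 of all fragments, and the polyA− calls 3 higher and 1 lower, against 174 and 252.

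**Figure D3:**
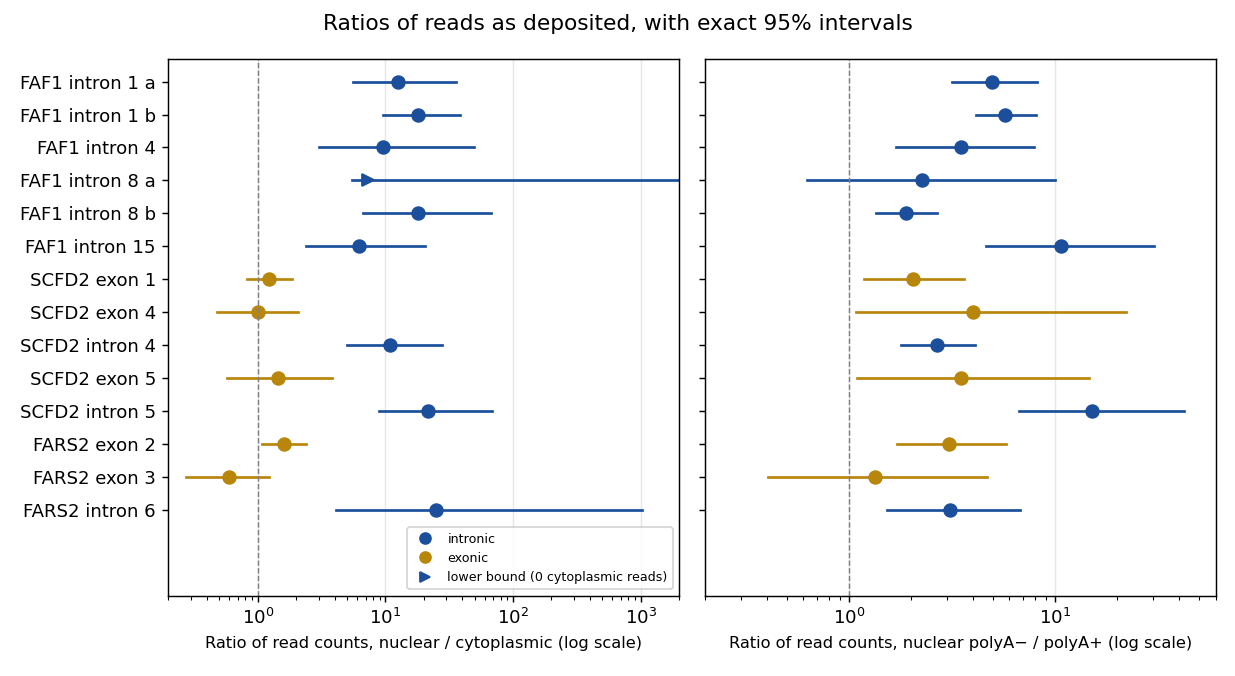
Ratio of read counts as deposited for each of the 14 fragments on a log scale, nuclear over cytoplasmic (left) and nuclear polyA− over polyA+ (right), with exact 95% intervals and a dashed line at 1. The 9 intronic fragments (blue) lie at 6.2 or more on the left, the 5 exonic ones (gold) at 1.60 or less, and the kinds overlap on the right. FAF1 intron 8 a, with 0 cytoplasmic reads, is drawn on the left against a floor of 3 reads.

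The difference between exonic and intronic fragments within a gene does not depend on the depth of the libraries, because both kinds were counted in the same libraries. This comparison was added after the values were seen. In SCFD2 the odds of a nuclear over a cytoplasmic read were 12.6 times higher in the introns (12 cytoplasmic and 184 nuclear reads) than in the exons (73 and 88 reads), with an exact 95% interval of 6.40 to 26.9 and a Benjamini-Hochberg adjusted p of 2.64e-18 in a two-sided Fisher's exact test. In FARS2 the odds were 19.6 times higher in the intron (1 and 25 reads) than in the exons (65 and 82 reads), with an interval of 3.04 to 826 and an adjusted p of 6.26e-05 in the same exact test. The adjustment was over the 5 coding genes that host both kinds of fragment, SCFD2 and FARS2 included, of which 4 (80%) were called. The others had odds ratios of 16.4 in EXOC4 (2.59 to 687), 3.96 in ZEB2 (2.98 to 5.26) and 1.16 in GOLGA1 (0.504 to 2.66). GOLGA1 was the one not called. The difference is thus not particular to SCFD2 and FARS2, though few other genes could be compared. The median of the 5 odds ratios, 12.6, is the value of SCFD2 itself.

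The split of nuclear RNA on oligo(dT) beads separated the kinds of fragment less. In SCFD2 the odds of a polyA− over a polyA+ read were 1.84 times higher in introns than in exons (1.01 to 3.33), which did not pass after adjustment (Fisher's exact test, adjusted p = 0.062). In FARS2 they were 1.19 times higher (0.482 to 3.08, adjusted p = 0.833 in the exact test). Of the 5 genes, 2 (40%) were called in this comparison, EXOC4 and ZEB2.

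Summed over the 3 genes, the 9 intronic fragments held 41 cytoplasmic, 620 nuclear, 193 polyA+ and 790 polyA− reads on 27.972 kb. The 5 exonic fragments held 138, 170, 50 and 126 reads on 1.865 kb. Per kb, the exons had 91.2 nuclear reads and the introns 22.2, whereas in cytoplasmic RNA the exons had 74.0 and the introns 1.47. Cytoplasmic reads made up 44.8% of the cytoplasmic and nuclear reads of the exons and 6.20% of those of the introns. The study called EZH2 enrichment separately on exonic and on other alignments, so the densities of both kinds compare fragments that passed different selections. Their lengths also differ, with a median of 176 bp in the exonic and 3292 bp in the intronic members. Reads of 150 bases can extend past a short fragment and still count on it, which raises its reads per kb. The densities of the 2 kinds are therefore not on an equal footing.

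FAF1, SCFD2 and FARS2 differed in their summed nuclear ratios over all fragments, and hold exonic fragments in different numbers. The summed counts of FAF1 were 28 cytoplasmic, 411 nuclear, 142 polyA+ and 574 polyA− reads, those of SCFD2 85, 272, 68 and 251, and those of FARS2 66, 107, 33 and 91. Nuclear over cytoplasmic, the ratios were 14.7 (10.0 to 22.4) for FAF1, 3.2 (2.50 to 4.13) for SCFD2 and 1.62 (1.18 to 2.24) for FARS2. As odds ratios, FAF1 stood 4.58 times (2.87 to 7.50) above SCFD2 and 9.01 times (5.41 to 15.3) above FARS2, and SCFD2 stood 1.97 times (1.31 to 2.97) above FARS2. Without the fragment with the most nuclear reads in each gene the last of these was 1.24, with an interval that includes 1. With intronic fragments alone the order was not kept, and the odds ratios were 0.957 (0.433 to 2.00) for FAF1 over SCFD2, 0.588 (0.0138 to 3.88) for FAF1 over FARS2 and 0.614 (0.0138 to 4.50) for SCFD2 over FARS2. These wide intervals do not show that the introns of the 3 genes are alike, and the FARS2 values rest on 1 cytoplasmic read.

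In the oligo(dT) split the 3 genes were closer. Summed polyA− counts were 4.04 times the polyA+ counts in FAF1 (3.36 to 4.89), 3.69 times in SCFD2 (2.81 to 4.90) and 2.76 times in FARS2 (1.83 to 4.24). The odds ratio was 1.10 (0.778 to 1.53) for FAF1 over SCFD2, 1.47 (0.914 to 2.31) for FAF1 over FARS2 and 1.34 (0.799 to 2.21) for SCFD2 over FARS2, so no pair was told apart.

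Fragments of 1 gene did differ in this split. Within FAF1, the odds of a polyA− read in intron 8 b were 0.348 times those in the other 5 fragments (0.230 to 0.530). They were 1.73 times higher in intron 1 b (1.15 to 2.63) and 2.84 times higher in intron 15 (1.20 to 8.20) than in the rest of the gene. That rest includes intron 8 b, which held 56 of the 142 polyA+ reads of FAF1, so these values are not separate from the first. Neither was computed without intron 8 b, and the intervals were not adjusted for the number of comparisons. As shares, polyA+ reads made up 34.6% of the nuclear polyA+ and polyA− reads of intron 8 b, 14.9% in intron 1 b and 8.57% in intron 15. In the nuclear against cytoplasmic comparison, none of the 6 FAF1 intervals excluded 1. The 2 introns of SCFD2 also differed, since the odds of a polyA− read were 5.63 times higher in intron 5 than in intron 4 (2.19 to 17.2), at polyA+ shares of 6.19% and 27.2%, while their nuclear odds ratio of 1.98 (0.519 to 8.23) included 1.

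Runs of A in the transcript are given beside these shares, because oligo(dT) pairs with A. This count was added after the shares were seen. FAF1 intron 8 b, the FAF1 fragment with the highest polyA+ share, had 3 runs of at least 10 A, the longest of 20 bases, and 41.8% A overall. SCFD2 intron 5, the member with the lowest share, had no run of that length, with a longest run of 7 and 31.5% A. The other 2 members with a run of at least 10 A were FAF1 intron 1 a (longest 16, polyA+ share 16.8%) and FAF1 intron 4 (longest 10, share 22.2%). FAF1 intron 8 a and SCFD2 intron 4 had shares of 30.8% and 27.2% with longest runs of 6 and 8, so a high share also occurred without such a run. Among 436 other intronic fragments of coding genes with at least 10 polyA+ and polyA− reads together, 32.8% had a run of at least 10 A. Their median polyA+ share was 29.9%, against 18.9% in those without one, and the rank correlation of runs per kb with the share was 0.24 over the 436 fragments, which share libraries and differ in length. The part of A runs in the shares of FAF1 and SCFD2 was not tested.

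The 9 intronic members are set beside the 466 other intronic fragments in coding genes, without a test. The median cytoplasmic share of cytoplasmic and nuclear reads was 5.26% in the members and 4.17% in the 435 others with at least 10 reads. The median polyA+ share was 22.2% in the members and 21.9% in the others. Nuclear density had a median of 14.7 reads per kb in the members and 27.1 in the others (quartiles 15.3 and 49.7). The exonic members had a median cytoplasmic share of 44.8%, against 31.1% in the 24 other exonic fragments of coding genes. Their polyA+ shares of 20% to 42.9% were below the median of 59.9% of the other exonic fragments, 37.5% or fewer of which lay below any member. Low exonic polyA+ shares were not particular to SCFD2 and FARS2. Exonic fragments of EXOC4 had 24 polyA+ and 86 polyA− reads, and those of ZEB2 132 and 685. Those of GOLGA1 went the other way, with 26 and 7. PolyA− counts were called higher for 4 of the 5 exonic members and for 29.2% of the other exonic fragments, and this difference was not tested.

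**Figure D4:**
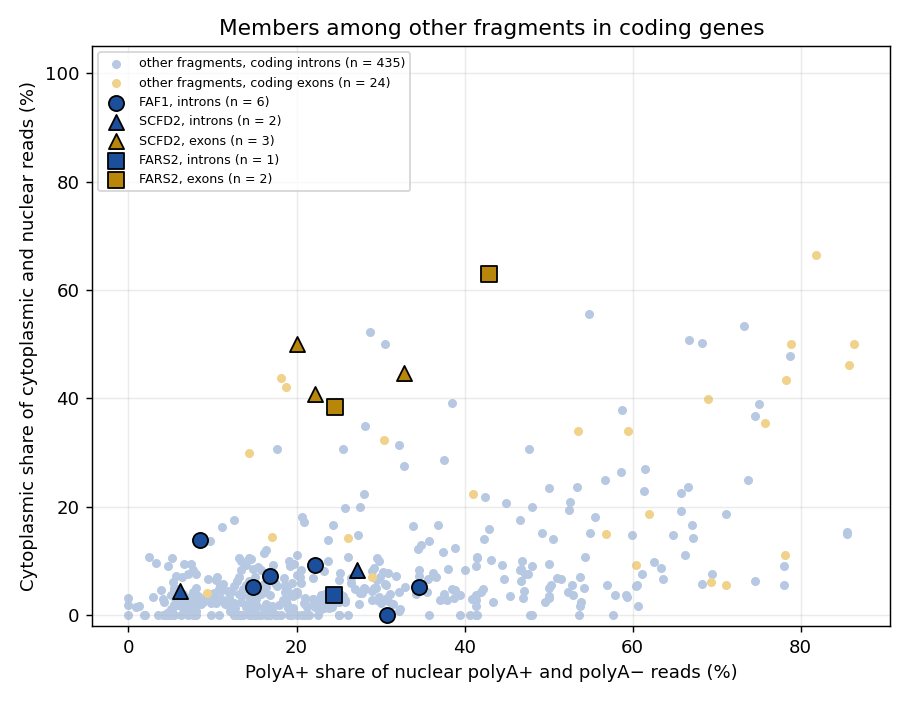
PolyA+ share of nuclear polyA+ and polyA− reads (x axis, %) against the cytoplasmic share of cytoplasmic and nuclear reads (y axis, %), for the 14 fragments (large symbols) and other fragments in coding genes (small points). The 5 exonic members (gold) lie at cytoplasmic shares of 38.4% to 62.9% and polyA+ shares of 42.9% or less, and the 9 intronic members (blue) lie at cytoplasmic shares of 13.9% or less.

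The intronic members held more A and less G than their flanks. On the transcribed strand their median share of G and A was 53.2%, against 50.01% in their own flanks of equal length, and 8 of 9 exceeded their flanks. The 455 other intronic fragments of coding genes had a median of 52.6%, close to the members. The members' median share of G was 19.2% against 20.8% in the flanks, with 1 of 9 above its flanks. Their median share of A was 35.0% against 30.3% in the flanks, with 8 of 9 above. The motif GGG occurred at a median of 7.80 per kb in the intronic members, 10.6 in their flanks and 11.5 in the other intronic fragments. FAF1 intron 1 b was the 1 member above its flanks, at 13.7 per kb. The motif GAGA occurred at 5.70 per kb, against 5.55 in the flanks and 6.24 in the other intronic fragments. A pattern of 4 runs of G that can form a G-quadruplex was found in 0 of the 9 intronic members and 8.13% of the other intronic fragments, and in 0 of the 5 exonic members and 4.76% of the 21 other exonic fragments of coding genes on 1 strand. With so few members a share of this size was not detectable. Exonic members had 49.4% GC at the median against 36.3% in their flanks, and all 5 exceeded their flanks. The 21 other exonic fragments had a median of 45.5% GC (quartiles 39.5% and 48.0%).

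Among genes of at least 200 kb, 130 held a listed fragment. FAF1 ranked 17 by the number of fragments, SCFD2 25 and FARS2 38, with 1.15, 1.01 and 0.588 fragments per 100 kb. Genes with equal numbers share a rank, and each of the 3 members shares its rank with other genes. Genes with overlapping spans each count the same fragments, as HBE1 and HBG2 do with 4. Genes of this length without a fragment are not included. The most fragments were in CPED1 (18 fragments, with 106 cytoplasmic, 2958 nuclear, 973 polyA+ and 2936 polyA− reads), CCDC26 (17 fragments, with 47, 4004, 587 and 4223 reads) and LINC00534 (17 fragments, with 17, 906, 423 and 925 reads). Of the 130 genes, 48 held at least 3 fragments, as do all 3 members, and 57 held 1.

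Genes related to each member by function were read from the FPKM table of the input RNA. Of 17 partners of FAF1 in the p97 and FAS pathways, 15 were at 1 FPKM or more. Values of 5 more genes are given for their roles, chosen after the values were seen. UFD1L, a p97 adaptor, was at 43.0 FPKM and VCP, the p97 ATPase itself, at 39.7 FPKM, both below FAF1. HSPA8, a heat shock protein of the HSP70 family, was highest at 354 FPKM, whereas the death receptor FAS was at 0.224 FPKM and its ligand FASLG, the lowest, was listed at 0. All 7 other Sec1/Munc18-type genes were at 1 FPKM or more, with a median of 11.7. They ran from VPS33B at 3.21 to SCFD1, which acts between the endoplasmic reticulum and the Golgi, at 22.2. SCFD2 lay within this range. All 23 other genes of the list of aminoacyl-tRNA synthetases and related enzymes, mainly mitochondrial, were at 1 FPKM or more, from PARS2 (1.24) to GARS (80.6), with a median of 8.17, near the level of FARS2. The cytosolic counterpart of FARS2 is made of FARSA and FARSB, which were at 18.4 and 9.70 FPKM.

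**Figure D5:**
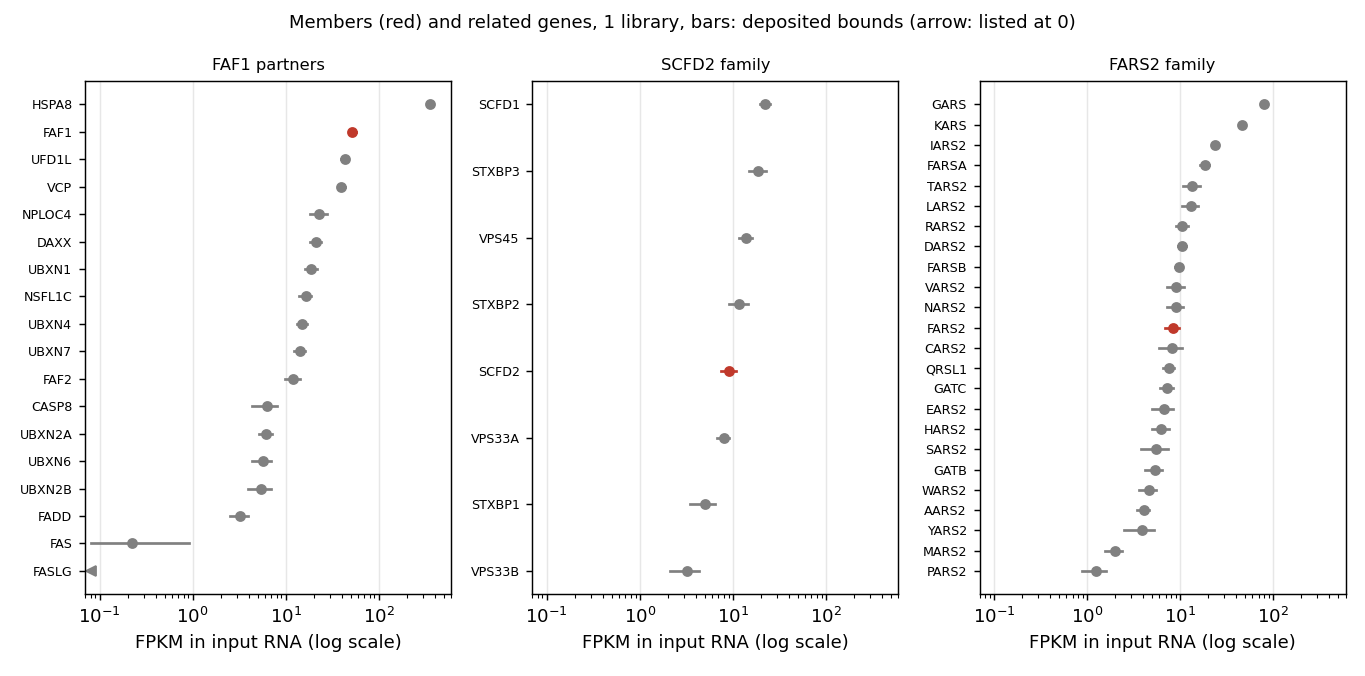
FPKM in the input RNA (x axis, log scale) of FAF1, SCFD2 and FARS2 (red) and of their related genes (grey), 1 library, with the bounds of the deposited estimate as bars and an arrow for FASLG, which is listed at 0. FAF1 is exceeded by HSPA8 alone in its list, and SCFD2 and FARS2 lie inside the ranges of their lists.

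The spans of the 3 genes also hold 10 smaller genes, none of which overlapped a fragment. In FAF1, the antisense gene FAF1-AS1 (RP5-850O15.3 in the table) was at 0.164 FPKM, and the highest was the processed pseudogene PHBP12 at 3.28 FPKM (2.19 to 4.37). In FARS2, the antisense gene FARS2-AS1 (RP1-232P20.1) was at 0.932 FPKM and the lncRNA RP1-256G22.2 at 1.07. In SCFD2, the lncRNA RP11-752D24.2 was at 0.797 FPKM. The strand setting of the read counts on fragments was not given in the sources used here, so reads of an unannotated antisense transcript could not be told from those of the member genes.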

How the data were processed

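RNA-seq of 4 fractions of K562 cells (cytoplasmic, nuclear, nuclear polyA+ and nuclear polyA−) and of the RIP-seq input RNA was used, with 1 library each. The authors trimmed adapters (TrimGalore), aligned the reads to GRCh38 and GENCODE 26 (STAR), and discarded duplicates as well as alignments of mapping quality below 20. The deposited counts are reads per EZH2 RIP-seq fragment from featureCounts, without normalization. The deposited FPKM per gene and its bounds come from cuffdiff, per the methods. EZH2 peaks had been called separately on exonic and other alignments, merged, and deposited as the list of fragments. The values of the other samples were not analysed here.

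The members and lists were chosen with earlier results of these data known. The genes named are the 3 members, the genes inside their spans, the highest and lowest genes of fixed lists of related genes, and the 3 genes of at least 200 kb with the most fragments. Further genes were named outside this rule after their values were seen. These are UFD1L, VCP, FAS, FARSA, FARSB, EXOC4, ZEB2, GOLGA1 and the hosts of the nearest fragments outside the spans. Fragments lay wholly inside a gene span of the FPKM table. The listed start counts from 0 (8 starts lay 1 base before an exon start and 0 on one), so 1 was added. Exons are those of GENCODE 44, and a fragment was exonic with at least 50% of its length in exons. Sequences were read from GRCh38. Sequences of intronic windows are not reported here.

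Nuclear was compared with cytoplasmic and polyA− with polyA+ RNA per fragment by an exact binomial test (two-sided), adjusted by Benjamini-Hochberg over all 900 fragments at a threshold of 0.05. Ratios have exact 95% Clopper-Pearson intervals. Genes and fragments were compared by odds ratios with exact intervals from Fisher's test, without p-values adjusted over the members alone. Exonic against intronic fragments of 1 gene, and runs of A, were added after the values were seen. So was the comparison of fragments with the rest of their gene among intronic fragments alone. The comparison of genes with intronic fragments alone was planned. Alternatives were 2 scalings of the libraries, a threshold of 0.01, a minimum of 10 reads, a minimum of 2-fold, leaving out the fragment with the most nuclear reads in each gene, an overlap of 50% with the span, and any base in an exon. The binomial and Fisher's tests were run on simulated counts with counting error alone, at equal depth of the libraries for the binomial test. Unequal depth and variation between replicates were not simulated. Python 3.11.15, scipy 1.17.1, pandas 2.3.3 and pysam 0.24.0 were used.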

Additional observations from a re-analysis of the deposited data

How the results depend on the processing

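The numbers of members called higher in nuclear RNA (10) and in polyA− RNA (12) stayed within 1.5 times under 4 settings. They were 9 and 9 at a threshold of 0.01, against 765 and 566 of all fragments. With a minimum of 10 reads they were 10 and 12, against 767 and 610. The overlap of 50% with the span gave 10 and 12, against 792 and 612. A minimum of 2-fold gave 9 and 11, without a count over all fragments to set beside them. They fell to 0 and 4 with libraries scaled to equal sums, which divides the ratios by 13.3 and 1.83. With scaling to a median ratio of 1, which divides the ratios by 22 and 3.54, they fell to 0 and 3. Both scalings set the summed or median ratio over the listed fragments to 1 and do not correct for depth. The nuclear ratio then became 1.10 and 0.667 for FAF1, 0.240 and 0.145 for SCFD2 and 0.122 and 0.0737 for FARS2, with equal sums first, and the polyA− ratio became 2.21 and 1.14, 2.02 and 1.04, and 1.51 and 0.779. Without the fragment with the most nuclear reads in each gene, the nuclear ratio of SCFD2 was 2.05, the polyA− ratios of FAF1 and SCFD2 were 3.31 and 2.58, and the nuclear odds ratio of SCFD2 over FARS2 was 1.24. With intronic fragments alone, the odds ratios turned to 0.957, 0.588 and 0.614 for nuclear RNA and to 0.889 for polyA− RNA (FAF1 over SCFD2). Fragments against the rest of their gene gave 11 intervals that exclude 1 over both comparisons, and 5 with intronic fragments alone, of which 2 are the same comparison of the SCFD2 introns read from either side.

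Depth limits the cytoplasmic values most, since the 9 intronic members had 0 to 10 cytoplasmic reads each. No paired analysis was possible because each fraction has 1 library and the numbered RIP-seq replicates have no values used here. An alternative without repeat sequence was not run, because repeats are not marked in the genome used. FPKM values come from 1 library.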
